A study of Homo sapiens with 8 samples.

Results

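The G1 regulators examined were 10 genes, *CDKN1A*, *CDKN1B*, *CDKN1C*, *CDKN2C*, *CCND1*, *CCND3*, *CCNE1*, *CCNE2*, *CDK4* and *CDK6*. They comprise G1 cyclins, their kinases CDK4 and CDK6, and inhibitors of cyclin-dependent kinases (CDKs). Each symbol was mapped to its NCBI gene number in the count tables, and all 10 were found among the 25702 genes listed. RNA-seq had been carried out on SUIT2, an established human pancreatic ductal adenocarcinoma (PDA) cell line, in 8 libraries. Of these, 4 are labelled shScr and carry a scramble short hairpin RNA (shRNA). A further 2 are labelled shEn1#1 and 2 are labelled shEn1#2, each construct directed against *EN1*, which encodes the homeobox transcription factor Engrailed-1. Per the methods, the *EN1* shRNAs were in the pLKO.1 puro vector, and the vector of the scramble shRNA is not given in the sources used here. All libraries come from a single cell line, and no source used here states that they came from separate cultures, so p-values measure only the spread between these libraries, which may be technical. Levels are given as CPM, that is counts per 1000000 counts of the library after its total was scaled by a TMM normalization factor (the trimmed mean method of edgeR).

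Progress through G1 depends on D-type cyclins, which bind CDK4 or CDK6, and on E-type cyclins, which bind CDK2. Both kinds of complex phosphorylate the retinoblastoma protein and so release the E2F transcription factors that drive genes of DNA replication. INK4 inhibitors such as p18 (*CDKN2C*) bind CDK4 and CDK6 directly, whereas CIP/KIP inhibitors such as p21 (*CDKN1A*), p27 (*CDKN1B*) and p57 (*CDKN1C*) bind cyclin-CDK complexes. In pancreatic cancer this checkpoint is known for frequent loss of *CDKN2A*.

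Library totals lay between 33423590 and 37810604 counts. The targeted gene did not follow its label (log2 fold change 0.26, SE 0.43, both constructs against shScr). *EN1* was at 4.10, 4.50, 4.93 and 2.51 CPM in shScr_1 to shScr_4, at 5.77 and 5.41 CPM in shEn1_1.1 and shEn1_1.2, and at 1.35 and 6.70 CPM in shEn1_2.1 and shEn1_2.2. Only shEn1_2.1 was below the shScr mean (exact two-sided permutation test over 70 assignments, p = 0.543), so every difference below is a difference between libraries labelled shEn1 and shScr. A pair of libraries of opposite label, shScr_4 (59.2) and shEn1_2.1 (62.1), stood apart from the other 6 (-27.6 to -9.15) on the first principal component, which held 44.4% of the variance. On the second, with 17.5%, shScr_3 (-39.3) and shEn1_1.1 (-30.6) were at one end. As a check of the cell line, 7 of 8 epithelial and ductal markers exceeded 1 CPM in every library (summed level 11728 to 15975 CPM in shScr and 11478 to 18604 CPM in shEn1). By contrast, 0 of 6 acinar and islet markers and 2 of 12 fibroblast, endothelial and leukocyte markers exceeded 1 CPM in every library. The highest mean level of the latter list was that of *CD68*. In the same order, 4 (*CPA1*, *INS*, *GCG*, *SST*) and 6 (*COL3A1*, *DCN*, *LUM*, *CDH5*, *PTPRC*, *CD3E*) had 0 counts in all 8 libraries. The summed level of those lists was 0.305 to 1.41 CPM and 10.8 to 38.5 CPM.

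The bases upstream of a start site show what kind of promoter these genes have, so 4 are printed here, each a gene with a single RefSeq start. Each run is the 120 bases before the start on GRCh38.p14, read 5′ to 3′ on the gene's strand, and capitals mark the GC box (GGGCGG, or CCGCCC on the other strand), the motif of Sp1-type factors.
CDKN1A (chr6:36678594-36678713, plus strand): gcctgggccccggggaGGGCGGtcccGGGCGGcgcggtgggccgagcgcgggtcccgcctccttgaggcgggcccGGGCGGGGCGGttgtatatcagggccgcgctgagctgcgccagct
CDKN1B (chr12:12717248-12717367, plus strand): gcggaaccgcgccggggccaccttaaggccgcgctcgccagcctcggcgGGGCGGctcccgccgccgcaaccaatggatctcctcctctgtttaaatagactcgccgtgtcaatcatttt
CCNE1 (chr19:29811871-29811990, plus strand): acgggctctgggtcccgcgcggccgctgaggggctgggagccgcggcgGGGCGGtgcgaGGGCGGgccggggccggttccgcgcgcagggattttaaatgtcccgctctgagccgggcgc
CDK4 (chr12:57752311-57752430, minus strand): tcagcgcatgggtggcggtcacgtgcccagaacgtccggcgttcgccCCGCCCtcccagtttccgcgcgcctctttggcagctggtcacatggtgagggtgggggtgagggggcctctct
The *CDKN1A* run is 80.83% G and C and holds 4 GC boxes, the last pair of which overlap. The *CCNE1* run is 78.33% G and C with 2 boxes, *CDK4* 69.17% with 1, and *CDKN1B* 65.0% with 1. Over the 12 RefSeq promoter windows of 250 bases matched to 7 of the members, 9 held at least 1 GC box, compared with 42.6% of all 35116 promoter windows. A set of E2F-site letters (TTTCCCGC, TTTGGCGC, TTTCGCGC or TTTGCCGC on either strand) was in 0 of the 12 and in 2.79% of all promoters. These matches describe letters only, and only for the 7 members whose windows were counted. No window of the remaining members entered these counts, so 0 of the 12 does not cover them. They are named with the processing and include an E-type cyclin gene.

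The CIP/KIP inhibitors were described first. *CDKN1A* (gene 1026; GRCh37 chromosome 6, 36644237 to 36655114, plus strand) encodes p21, the classical p53-induced inhibitor. It was at 74.2, 35.6, 48.4 and 47.7 CPM in shScr_1 to shScr_4, at 55.6 and 75.2 CPM in shEn1_1.1 and shEn1_1.2, and at 49.7 and 46.9 CPM in shEn1_2.1 and shEn1_2.2. The highest pair, shScr_1 and shEn1_1.2, carry opposite labels and the groups overlap. *CDKN1B* (gene 1027; chromosome 12, 12838432 to 12875303, plus strand) encodes p27, which accumulates in quiescent cells. It was at 59.7, 68.2, 75.7 and 105.8 CPM in the shScr libraries, at 60.4 and 65.5 CPM for shEn1#1, and at 98.0 and 66.7 CPM for shEn1#2. Its highest values were in shScr_4 and shEn1_2.1, again 1 library of each label. *CDKN1C* (gene 1028; chromosome 11, 2904443 to 2907005, minus strand) encodes p57 and is an imprinted gene. It was the scarcest member, with 22 to 51 counts per library. Its levels were 1.51, 1.29, 1.46 and 0.907 CPM in the shScr libraries, 0.616 and 1.15 CPM for shEn1#1, and 0.838 and 1.11 CPM for shEn1#2. The lowest library, shEn1_1.1, had a 95% exact Poisson interval of 0.386 to 0.933 CPM, which overlaps that of shScr_4 (0.628 to 1.27 CPM) and lies below those of the other shScr libraries, the lowest of which begins at 0.954 CPM. These intervals cover counting error only.

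Of the INK4 inhibitors the set holds *CDKN2C* (gene 1031; chromosome 1, 51426417 to 51440306, plus strand). It was at 49.6, 55.2, 76.2 and 75.1 CPM in the shScr libraries, at 55.7 and 48.4 CPM for shEn1#1, and at 71.5 and 64.1 CPM for shEn1#2. This was the narrowest range of the 10 members, with the highest library 1.57 times the lowest. The other INK4 genes were read beside it. *CDKN2A* was at 12.6 to 24.9 CPM and *CDKN2D* at 2.83 to 8.22 CPM, whereas *CDKN2B*, which encodes p15, had 0 counts in all 8 libraries. At these depths 0 counts allow up to 0.0921 CPM (3 counts per library). *CDKN2A* encodes p16 and ARF from partly shared exons, which a count per gene does not separate.

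*CCND1* (gene 595; chromosome 11, 69455924 to 69469242, plus strand) encodes cyclin D1, a target of mitogen signalling. It was at 694, 553, 320.4 and 634 CPM in the shScr libraries, at 325 and 790.3 CPM for shEn1#1, and at 631 and 656 CPM for shEn1#2. The libraries shScr_3 and shEn1_1.1 were the low pair, so of the shEn1#1 libraries one was next to the lowest and the other the highest of all 8. *CCND3* (gene 896; chromosome 6, 41902672 to 42018095, minus strand) encodes cyclin D3. It was at 169, 143, 140.2 and 260.0 CPM in the shScr libraries, at 119 and 185 CPM for shEn1#1, and at 269.8 and 170.2 CPM for shEn1#2. Its high libraries were shScr_4 and shEn1_2.1, and its low libraries shEn1_1.1 and shScr_3. *CCND2*, the remaining D-type cyclin gene, had 0 counts in all 8 libraries.

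*CCNE1* (gene 898; chromosome 19, 30302898 to 30315219, plus strand) encodes cyclin E1. It was at 15.2, 10.1, 15.3 and 18.1 CPM in the shScr libraries, at 14.6 and 16.1 CPM for shEn1#1, and at 14.3 and 14.1 CPM for shEn1#2. The lowest and the highest library were both shScr, and the 4 shEn1 libraries lay between them. *CCNE2* (gene 9134; chromosome 8, 95891998 to 95908906, minus strand) encodes cyclin E2. It was at 17.4, 19.4, 13.7 and 23.9 CPM in the shScr libraries, at 16.6 and 10.9 CPM for shEn1#1, and at 24.6 and 16.6 CPM for shEn1#2. As for *CDKN1B* and *CCND3*, its highest pair was shScr_4 and shEn1_2.1.

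*CDK4* (gene 1019; chromosome 12, 58141510 to 58149796, minus strand) was at 378, 371, 665 and 391 CPM in the shScr libraries, at 624 and 338 CPM for shEn1#1, and at 373 and 407 CPM for shEn1#2. It was high in shScr_3 and shEn1_1.1 alone, and the other 6 libraries lay within 338 to 407 CPM. *CDK2*, the kinase of the E-type cyclins, was named after its values were seen. It was highest in the same pair, at 224 CPM in shScr_3 and 238 CPM in shEn1_1.1, against 159.7 to 178 CPM in the other 6. *CDK6* (gene 1021; chromosome 7, 92234235 to 92465887, minus strand) was at 131, 123, 98.4 and 55.6 CPM in the shScr libraries, at 105 and 150.3 CPM for shEn1#1, and at 71.0 and 116 CPM for shEn1#2. Here shScr_4 and shEn1_2.1 were the low pair, the reverse of their place for *CCND3*.

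**Figure D1:**
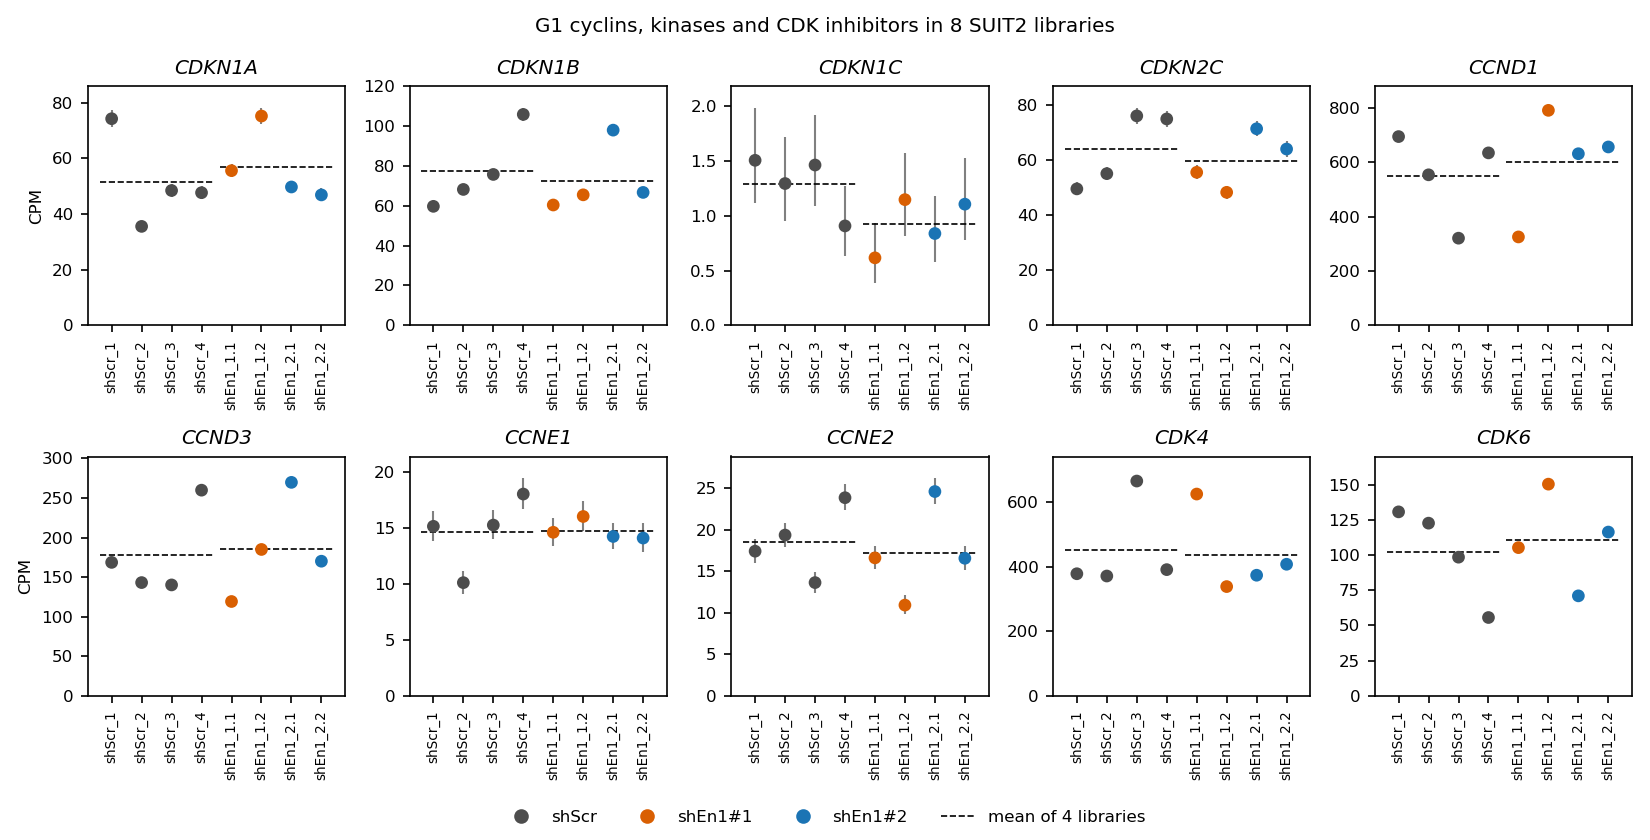
Levels of the 10 genes in each of the 8 libraries (CPM, linear axis from 0; points are libraries coloured by label, vertical lines are 95% Poisson intervals of the count, dashed lines are the means of the 4 shScr and 4 shEn1 libraries). Points of both labels overlap for all 10 genes, from *CDKN1C* near 1 CPM to *CCND1* at 320.4 to 790.3 CPM.

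To compare levels between genes, CPM was divided by the length of the Ensembl canonical transcript. In CPM per kilobase over 8 libraries, *CDK4* was highest at 238 ± 67.6 (SD, n = 8), followed by *CCND1* at 136 ± 40.0, *CCND3* at 89.9 ± 27.2, *CDKN2C* at 62.3 ± 11.3 and *CDKN1B* at 31.1 ± 7.24. *CDKN1A* was at 25.6 ± 6.54, *CDK6* at 9.11 ± 2.67, *CCNE1* at 7.53 ± 1.15, *CCNE2* at 6.69 ± 1.75 and *CDKN1C* at 0.626 ± 0.175 CPM per kilobase. The ranges over libraries were separate at 3 steps of this order, *CDKN2C* over *CDKN1B*, *CDKN1A* over *CDK6*, and *CCNE2* over *CDKN1C*, and neighbours elsewhere overlapped. With all annotated exons as the length in place of the canonical transcript, *CDKN1B* moved from the fifth place to the seventh.

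Within a class, the level per kilobase was expressed as a share. *CCND1* took 59.8 ± 6.54% of the D-type cyclin level (SD, n = 8), from 52.2% in shScr_3 to 67.1% in shEn1_1.2. *CCNE1* took 53.4 ± 8.10% of the E-type level, so neither gene led in every library, and its share ran from 41.7% in shScr_2 to 66.8% in shEn1_1.2. *CDK4* made up 96.1 ± 1.63% of *CDK4* and *CDK6* together, between 93.4% and 97.8%. In CIP/KIP, *CDKN1B* (54.3 ± 9.34%) and *CDKN1A* (44.6 ± 9.30%) shared the level, and *CDKN1C* added 1.11 ± 0.367%. *CDKN2C* took 74.4 ± 2.90% of the INK4 level, *CDKN2A* 21.7 ± 2.44% and *CDKN2D* 3.88 ± 0.854%. The shares rest on the length used, since with all annotated exons as the length *CDKN1A* rather than *CDKN1B* led its class, at 67.2%.

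The ratio of *CDKN1A* to *CDKN1B* per kilobase was above 1 in shScr_1 (1.42), shEn1_1.2 (1.31) and shEn1_1.1 (1.05) and below 1 in the other 5 libraries, down to 0.513 in shScr_4. The ratio of *CDK4* to *CDK6* split the libraries in another way. It was 42.2 in shScr_3, 43.9 in shScr_4, 37.1 in shEn1_1.1 and 32.9 in shEn1_2.1, against 14.1 to 21.9 in the other 4, and each of these sets holds 2 libraries of each label.

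**Figure D2:**
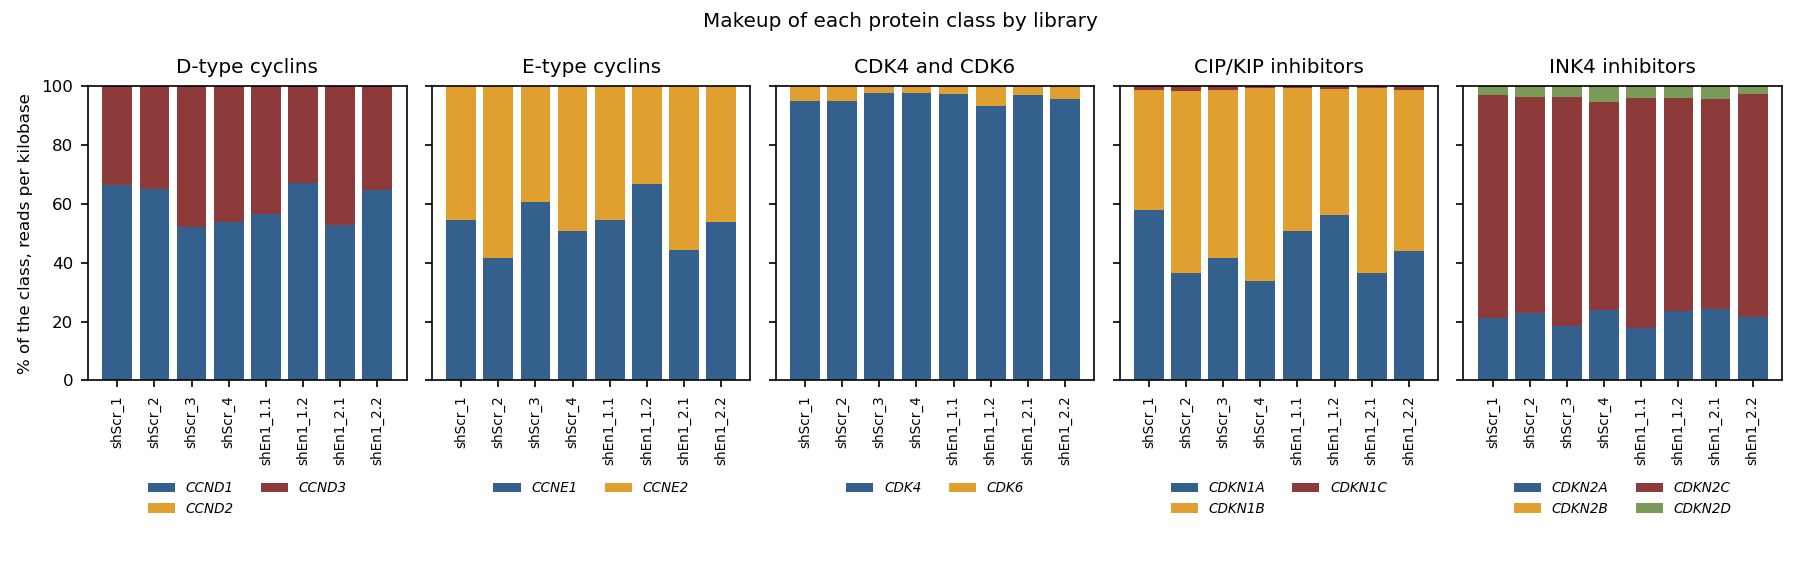
Share of each protein class taken by each gene in each library (% of the class sum of CPM per kilobase of the canonical transcript, stacked bars from 0 to 100). *CDK4* fills 93.4% to 97.8% of its class in every library, the *CDKN1A* share runs from 33.6% to 57.8%, and *CCND2* and *CDKN2B* have no visible bar because both had 0 counts.

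The study compared shScr with the *EN1* shRNAs to find genes that depend on EN1. The paper reports depletion of EN1 in SUIT2, with mRNA measured by RT-qPCR, and differentially expressed genes from SUIT2 RNA-seq. Whether the RT-qPCR used the RNA of these libraries is not stated there. Since *EN1* was not lower in the libraries labelled shEn1, the values here compare labels only. Between the 4 libraries labelled shEn1 (both constructs) and the 4 labelled shScr, edgeR's quasi-likelihood test called 0 of the 10 members at an adjusted p below 0.05. The background was 0 of 14333 genes tested, 0%, and DESeq2 called 2 genes, neither of them a member. At an unadjusted p below 0.05 in edgeR there were 0 members and 44 genes in all (0.307%). Without any difference, a calibrated test passes a share near its threshold of 0.05. Far fewer genes passed here, so 0 of the 10 members says little about them. The CPM of the groups overlapped for 10 of 10 members, where 0.419% of the tested genes had groups that did not. In bulk samples a change in the number of cells in G1 and in RNA per cell cannot be told apart.

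By role, *CDKN1A* was at 51.5 ± 16.3 CPM in shScr and 56.8 ± 12.8 CPM in shEn1 (SD, n = 4 each), a log2 fold change of 0.14 (SE 0.23, 95% interval -0.36 to 0.65). *CDKN1B* was at 77.4 ± 20.1 and 72.6 ± 17.1 CPM, a log2 fold change of -0.091 (SE 0.20). The largest difference in size was that of *CDKN1C*, at 1.29 ± 0.273 and 0.927 ± 0.248 CPM, with a log2 fold change of -0.48 (SE 0.37, 95% interval -1.29 to 0.33). That interval includes 0, as did those of all 10 members. For *CDKN2C* the means were 64.0 ± 13.6 and 59.9 ± 10.1 CPM (log2 fold change -0.095, SE 0.18).

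The D-type cyclins were 0.13 (SE 0.29) for *CCND1*, with means of 550.4 ± 164 and 600.5 ± 197 CPM, and 0.064 (SE 0.27) for *CCND3*, with means of 178 ± 56.1 and 186 ± 62.5 CPM, on the log2 fold change scale. *CCNE1* had means of 14.7 ± 3.30 and 14.8 ± 0.883 CPM and a log2 fold change of 0.011 (SE 0.18). *CCNE2* had 18.6 ± 4.26 and 17.2 ± 5.63 CPM and a log2 fold change of -0.11 (SE 0.25). The kinases were at 451 ± 143 and 436 ± 129 CPM for *CDK4* (log2 fold change -0.050, SE 0.24) and at 102 ± 33.7 and 111 ± 32.7 CPM for *CDK6* (log2 fold change 0.12, SE 0.29). Hence 5 members were above and 5 below 0, with a median log2 fold change of -0.020 against -0.0028 over all tested genes, and all adjusted p values were 1.00 in edgeR.

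The intervals give the differences that these libraries leave possible. For *CCND1* the 95% interval ran from 0.691-fold to 1.72-fold, and for *CCNE1* from 0.762-fold to 1.33-fold. Differences within these ranges are compatible with the values, and no detection limit was computed. Leaving out 1 library at a time changed the sign of the log2 fold change for 8 of 10 members. *CDKN1C* stayed between -0.62 and -0.33, and *CDKN2C* between -0.20 and -0.0011, the latter without shScr_3. Without shScr_4 and shEn1_2.1, the members lay between -0.57 (*CDKN1C*) and 0.17 (*CCND1*). Without shScr_3 and shEn1_1.1 as well, which leaves 2 libraries a group, they lay between -0.42 (*CCNE2*) and 0.25 (*CCNE1*). No member was called by edgeR in either fit, in which the lowest adjusted p of a member was 1.00 and 0.489. In the second of these, 0 members were among the 10.6% of tested genes with an unadjusted p below 0.05.

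**Figure D3:**
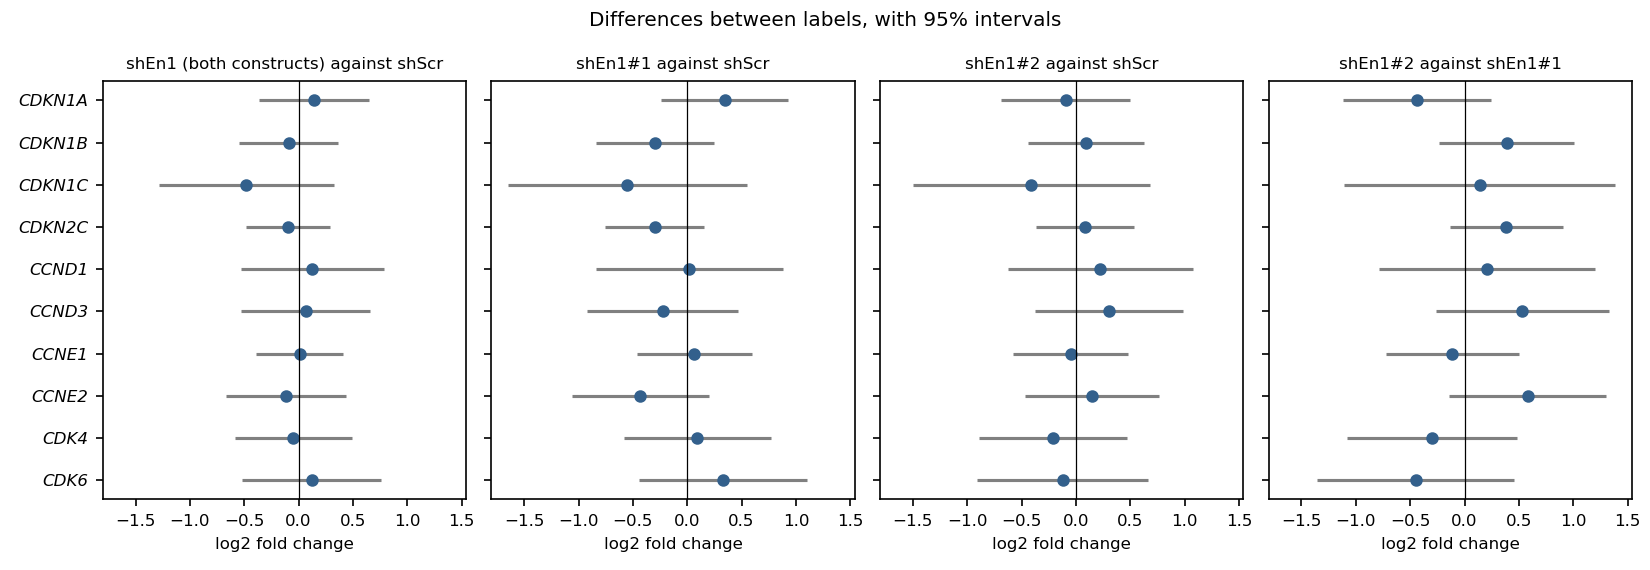
Log2 fold changes of the 10 genes in 4 comparisons between labels (points, edgeR; horizontal bars are 95% intervals; the vertical line is 0). All 40 intervals cross 0, and the widest belong to *CDKN1C*, the gene with the fewest counts.

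Each construct was then compared with shScr in a fit with 3 groups, in which both comparisons share the shScr libraries. For shEn1#1 against shScr, 0 members and 0 genes (0%) passed an adjusted p below 0.05 in edgeR, and 0 members and 94 genes (0.656%) an unadjusted p below 0.05. DESeq2 called 3 genes, none of them a member. The log2 fold changes of members ran from -0.55 for *CDKN1C* (SE 0.49) to 0.35 for *CDKN1A* (SE 0.26), and *CCNE2* was at -0.43 (SE 0.28). These values rested on single libraries. *CDKN1C* was at -0.17 without shEn1_1.1 and at -1.05 without shEn1_1.2. *CCNE2* was at -0.76 and -0.14 in the same fits, and *CDKN1A* was at 0.13 without shEn1_1.2 and 0.58 without shScr_1. For shEn1#2 against shScr, 0 members and 0 genes (0%) passed the adjusted threshold, and 0 members and 43 genes (0.300%) the unadjusted one, with 0 called by DESeq2. Members ran from -0.41 for *CDKN1C* (SE 0.49) to 0.31 for *CCND3* (SE 0.30). Leaving out shEn1_2.1 moved the value of *CCND3* to -0.079 and that of *CDKN1C* to -0.24, and leaving out shEn1_2.2 moved them to 0.60 and -0.62.

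The difference between the constructs was tested directly. For shEn1#2 against shEn1#1, again 0 members and 0 genes (0%) passed the adjusted threshold in edgeR, and 0 members and 153 genes (1.07%) the unadjusted one, with 0 called by DESeq2. The largest difference among members was that of *CCNE2*, with a log2 fold change of 0.58 (SE 0.32, 95% interval -0.14 to 1.30), followed by *CCND3* at 0.53 (SE 0.35). *CDK6* was at -0.45 (SE 0.40), and at -0.15 without shEn1_2.1 or -0.85 without shEn1_2.2. *CDKN1A* was at -0.44 (SE 0.30). For *CCNE2* and *CCND3*, shEn1_2.1 was the highest shEn1 library and its partner shEn1_2.2 lay within the range of the 2 shEn1#1 libraries. Without shEn1_2.1 the value of *CCNE2* was 0.24, and without shEn1_1.1 it was 0.91.

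The members also varied among the libraries irrespective of label. The SD of log2 CPM over the 8 libraries was 1.74 (*CDKN1C*) to 46.6 (*CCND1*) times that of counting alone, which separate libraries generally exceed. It was 0.49 for *CCND1*, 0.48 for *CDK6* and 0.42 for *CCND3*, against a median of 0.26 over the 14333 genes. Among tested genes of similar level, these lay at the 94.8, 95.9 and 92.5 percentiles. *CDKN1A* was at the 89.2 percentile (SD 0.36), *CDK4* at 88.1 (SD 0.37), *CDKN1B* at 85.0 (SD 0.31) and *CCNE2* at 83.0 (SD 0.39). Lower down were *CDKN2C* at 75.2 (SD 0.26), *CCNE1* at 46.0 (SD 0.24) and *CDKN1C* at 18.4 (SD 0.41), the last being the member with the fewest counts. From the lowest to the highest library, *CDK6* spanned 2.70-fold and *CCND1* 2.47-fold.

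**Figure D4:**
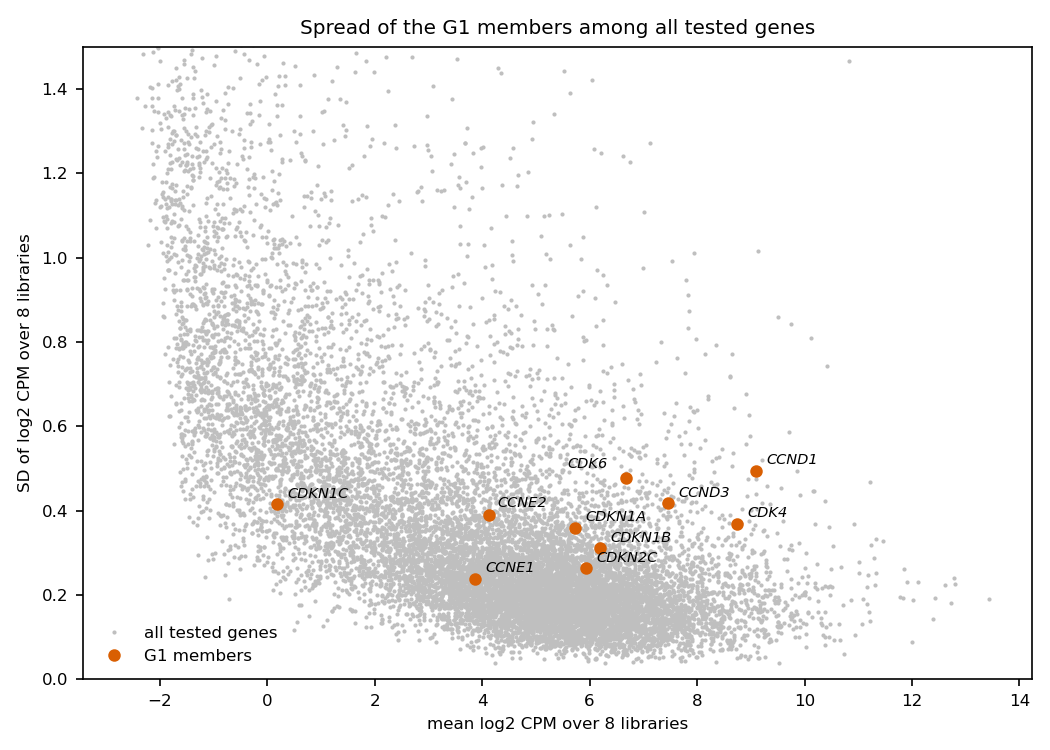
SD of log2 CPM over the 8 libraries (vertical axis, up to 1.5, above which 135 tested genes are not drawn) against mean log2 CPM for all 14333 tested genes (grey) and the 10 G1 genes (orange). *CCND1*, *CDK6* and *CCND3* lie in the upper part of the cloud at their level, and *CCNE1* and *CDKN1C* within or below its middle.

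The spread was shared between libraries of opposite label. With the 10 members' log2 CPM, the root mean square distance was smallest for shScr_4 and shEn1_2.1 (0.168, the smallest of 28 pairs). It was 0.260 for shScr_2 and shEn1_2.2 and 0.271 for shScr_1 and shEn1_1.2. Over all tested genes these pairs were also close, at 0.395, 0.488 and 0.510 (ranks 1, 2 and 4 of 28). Rank 3 was a pair with the same label, shEn1_1.2 and shEn1_2.2 (0.495). The resemblance was therefore not particular to the members. With the members, the median was 0.592 over the 12 pairs with the same label and 0.534 over the 16 pairs with different labels. Both libraries of shEn1#1 were 0.665 apart, and the largest distance, 0.717, was between shScr_4 and shEn1_1.2. In the closest pair, *CDKN1B*, *CCND3* and *CCNE2* had their 2 highest values and *CDK6* its 2 lowest. In shScr_1 and shEn1_1.2, *CDKN1A*, *CCND1* and *CDK6* had their 2 highest. In shScr_3 and shEn1_1.1, *CDK4* had its 2 highest and *CCND1* and *CCND3* their 2 lowest. These are descriptions over 8 libraries, and what the paired libraries have in common was not tested.

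For the 3 members with the widest range among those with a mean of at least 10 CPM, which leaves out *CDKN1C*, the genes with the most similar profile were sought among 9462 genes by the root mean square distance of centred log2 CPM over the 8 libraries. For *CDK6* they were *TRAF3IP2* (0.101), *PAXIP1* (0.112) and *GCLC* (0.115), each lowest in shScr_4 and highest in shEn1_1.2, as *CDK6* was. For *CCND1* they were *DUSP4* (0.0885), *PEAR1* (0.0957) and *CHST3* (0.110), lowest in shScr_3 or shEn1_1.1 and highest in shEn1_1.2. *DUSP4* encodes a nuclear phosphatase of ERK-type kinases and ran from 57.5 CPM in shEn1_1.1 to 138 CPM in shEn1_1.2. For *CCND3* they were *CYFIP2* (0.0573), *ZNF839* (0.0679) and *EPHA2* (0.0834), a receptor of ephrins.

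Several members overlap another gene on the opposite strand, and the strand setting of the counting is not given in the sources used here. *CDK4* overlaps *TSPAN31*, which was at 68.0 CPM in shScr_3 and 65.5 CPM in shEn1_1.1, but also at 72.4 CPM in shScr_4 and 66.2 CPM in shEn1_2.1, where *CDK4* was not high. *CCND1* overlaps *LTO1* (24.5 to 29.3 CPM) and *CCNE2* overlaps *INTS8* (40.9 to 61.8 CPM). *INTS8* was above *CCNE2* in every library. How many reads were shared was not tested.

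Other genes of the pathway were read from lists. Of 20 partners at the G1 restriction point, such as the retinoblastoma and E2F proteins, 18 were tested and 0 were called in the pooled comparison. They had a median log2 fold change of 0.033, with 11 above and 7 below 0. The extremes were *E2F4*, a repressive E2F, at 0.15 (SE 0.29) and *CDKN2D* at -0.19 (SE 0.35). *E2F4* was lowest in shScr_4 (59.2 CPM) and shEn1_2.1 (62.1 CPM), against 109 to 147 CPM in the other 6, the direction of *CDK6*. Of the 12 genes of G1 regulator turnover, 0 were called, with a median of -0.0052 and values from -0.076 for *SKP1* to 0.068 for *CUL1*, both parts of the SCF ubiquitin ligase.

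Among 18 E2F target genes of DNA replication, 0 were called and the median log2 fold change was 0.0013, from -0.049 for *POLA1* to 0.061 for *CCNA2*, which encodes cyclin A2. Their mean centred log2 CPM was lowest in shScr_4 (-0.100) and shEn1_2.1 (-0.092), with 6 and 4 of 18 genes above their own mean, and ran from -0.0028 to 0.062 in the other 6. These 2 libraries also had the highest normalization factors, 1.06 and 1.07 against 0.962 to 1.00 in the other 6. A higher factor lowers every CPM of its library, and whether the low place holds with library size only was not tested. Among 20 p53 target genes, 19 were tested and 0 were called. Their median was -0.035, from -0.44 for *BTG2* (SE 0.36), an antiproliferative gene, to 0.78 for *BBC3* (SE 0.59), which encodes PUMA. Their mean centred log2 CPM was highest in the same pair, at 0.245 and 0.249, and lowest in shScr_2 (-0.223) and shScr_1 (-0.210). *CDKN1A*, itself a p53 target and not in that list, was instead highest in shScr_1 and shEn1_1.2. For 10 FOXO and TGF-beta targets that restrain G1, 0 were called and the median was 0.064, from -0.68 for *PIK3IP1* (SE 0.41) to 0.33 for *KLF2* (SE 0.37).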

How the data were processed

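RNA was taken from SUIT2 cells at 70% confluence and sequenced in 8 libraries, grouped by title into shScr, shEn1#1 and shEn1#2. Per the methods, mRNA was captured on oligo(dT) beads and sequenced as paired ends, and the authors aligned reads to hg19 with HISAT2 and counted them with featureCounts. Versions, annotation and strand setting are not given in the sources used here, and the submitters' processing notes list mm9 as the build. The deposited values are raw whole-number counts per gene, and rows without a symbol (2006 of 25702, 0.214% to 0.257% of counts) were kept. Gene models were GENCODE lifted to GRCh37 (the hg19 build), and RefSeq (GRCh38.p14) gave names and promoter sequences. No promoter window of *CDKN1C* or *CCND1* was among these sequences. Member windows on chromosome 8, where *CCNE2* lies, were left out of the counts of GC boxes and E2F-site letters. The counts over all promoters had no such exclusion, and the letters upstream of *CCNE2* are not given here.

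Counts were filtered (filterByExpr, minimum count 10, 14333 genes), TMM-normalized (CPM use these factors) and tested with edgeR 4.0.16 (quasi-likelihood test, R 4.3.3) and p was adjusted by Benjamini-Hochberg over all tested genes at a threshold of 0.05. Log2 CPM used a prior count of 2 for the spread, the principal components and the library distances. The list means per library and the nearest profiles used log2 CPM without a prior count. Constructs were compared in a fit with 3 groups. Members and lists were chosen with earlier results of these data known. Named genes were the members, *EN1*, each list's highest and lowest gene in the pooled comparison, and the 3 nearest profiles of each of the 3 widest-ranging members (mean of at least 10 CPM). Outside this rule, the other genes of each class, some cell type markers and the genes overlapping a member are named. *CDK2* was named after its values were seen. The procedure was tested on simulated data, in which libraries were drawn independently. The simulation held no pairs of opposite label that resemble each other, so it does not show how the tests behave on these libraries. Other normalizations, filters, DESeq2 1.42.0, limma-voom 3.58.1, a replicate block and left-out libraries were alternatives. The length over all annotated exons was added after seeing the data.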

Additional observations from a re-analysis of the deposited data

Results flagged for a closer look

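Among 36 groups of 4 values examined (levels of the 10 genes and *EN1*, 5 class shares, normalization factors and totals, each for shScr and for shEn1), 3 had 1 library far from the other 3 by Dixon's criterion, where chance gives about 1 in 20, or 1.8. *CDKN1B* was at 98.0 CPM in shEn1_2.1 against 60.4 to 66.7 CPM in the other libraries labelled shEn1. *CDK4* was at 665 CPM in shScr_3 against 371 to 391 CPM in the other libraries labelled shScr. The normalization factor of shEn1_2.1 was 1.07 against 0.974 to 0.981 in the other libraries labelled shEn1.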

How the results depend on the processing

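No member had an adjusted p below 0.05 under any alternative. The log2 fold changes of the 10 members in the pooled comparison kept their direction under DESeq2's size factors, library size only, both other filters, DESeq2, limma-voom, the 3-group average and without shScr_4 and shEn1_2.1. They changed direction for *CDKN1B* (0.045) and *CDKN2C* (0.099) without shScr_3, shScr_4, shEn1_1.1 and shEn1_2.1. The replicate block was fitted to the libraries numbered 1 and 2 of each group, and so without shScr_3 and shScr_4. In that fit *CDKN1B* was at 0.17, *CDKN2C* at 0.19, *CCND1* at -0.10, *CDK4* at 0.20 and *CDK6* at -0.24, and the cause was not tested. Deviations of same-numbered libraries had no common sign (r of -0.22, 0.027, -0.33 and 0.44, the last for shScr_2 and shEn1_2.2), and the numbers were not taken as pairs. Leaving out 1 library at a time gave -0.020 to 0.37 for *CDKN1A*, -0.27 to 0.098 for *CDKN1B*, -0.063 to 0.33 for *CCND1*, -0.17 to 0.30 for *CCND3*, -0.13 to 0.13 for *CCNE1*, -0.34 to 0.051 for *CCNE2*, -0.27 to 0.20 for *CDK4* and -0.083 to 0.28 for *CDK6*, and -0.079 to 0.60 for *CCND3* in shEn1#2 against shScr. The count of genes called in the pooled comparison was 0 with edgeR, 44 at an unadjusted p below 0.05, 2 with DESeq2, 0 to 1 with 1 library left out (1 without shScr_4), and 1 each under the replicate block and without either set of libraries. For shEn1#1 against shScr it was 1 without a filter, 3 with DESeq2, 2 without shScr_4 and shEn1_2.1, and 0 to 1 with 1 library left out (1 without shEn1_1.2 and 1 without shEn1_2.1). The class shares moved with length, to 75.5% for *CCND1* and 80.1% for *CDK4* by counts alone, and to 78.8% for *CCND1*, 94.0% for *CDK4* and 67.2% for *CDKN1A* with all annotated exons. With 1 library left out, 3 members had an unadjusted p below 0.05 in a comparison of constructs, namely *CDKN1A* for shEn1#1 against shScr (0.58 without shScr_1, where 1.28% of all tested genes passed), *CCND3* for shEn1#2 against shScr (0.55 without shScr_4, 2.33%), and *CCNE2* for shEn1#2 against shEn1#1 (0.91 without shEn1_1.1, 0.735%, and 0.84 without shEn1_2.2, 5.77%). Depth limits *CDKN1C* most, at 22 to 51 counts.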
